A study of Mus musculus with 2 samples.

Results

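The 10 genes described here code for transcription regulators known from kidney and somite progenitors: the odd-skipped zinc-finger genes Osr1 and Osr2, the spalt-like zinc-finger genes Sall1 to Sall4, the mesenchyme homeobox genes Meox1 and Meox2, the cofactor gene Cited1 and the homeobox gene Uncx. They were chosen by name, 10 of the 21938 protein-coding genes on chromosomes 1 to 19, X and Y. The choice used no rule on a value measured here, although earlier results of these data were known. DNase-seq, which maps DNA that is open to the nuclease DNase I, had been done on the kidney of newborn mice of strain B6NCrl (age 0 days, sex not collected, no treatment or transgene named), in 2 replicates of 1 group. One donor record stands in the labels of both replicates, beside a tissue record of each, so their spread may be only technical. For each gene, the peaks within 1 kb of any annotated transcription start site (TSS) and the sites shared by both replicates up to 50 kb from the most 5′ TSS were taken. The comparison asked how relatives within a family differ in promoter signal and in where their distal sites lie.

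Nephrons arise from the cap mesenchyme, a pool of progenitors around the tips of the branching ureteric bud, and in the mouse this pool is still present at birth. Osr1 acts early in the intermediate mesoderm from which the kidney forms, Sall1 is needed in the cap mesenchyme, and Cited1 marks its most undifferentiated cells. Meox1, Meox2 and Uncx are best known from the somites. An open promoter or enhancer gives a DNase peak, but a peak does not measure transcription.

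The replicates held 266133 and 257133 peaks, which formed 197749 shared sites, 151068 of them distal, that is, with a centre more than 1 kb from every TSS of GENCODE M21. Peak signal is the authors' own value per peak, and its scaling for depth was not given in the sources used here. Across all shared sites the log2 ratio of replicate 2 over replicate 1 had a median of -0.01 and an SD of 0.35. Depth is unknown, so no counting interval can be given for a peak. The kidney markers Pax2, Pax8, Lhx1, Emx2, Ret, Nphs1, Lrp2 and Cdh16 all showed a promoter peak in each replicate, with mean signals between 21.1 (Ret) and 83.8 (Pax2). None of the 3 liver, 3 skeletal muscle and 3 leukocyte markers did, and of 3 adrenal cortex markers Star did, at 40.2. The leukocyte gene Ptprc had a peak of signal 8.72 in replicate 1 only. In whole tissue, fewer cells of a type and less open chromatin per cell cannot be told apart.

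The sequences below are those the results turn on: the strongest distal site of Osr1, Osr2, Sall2, Sall4, Meox1, Meox2 and Uncx, the site beside that of Meox2, an intronic site of Sall1, a Meox1 and an Uncx site shown for their motif matches, and promoters of Sall1, Sall2 and Meox2. Distal sites are given on the plus strand of GRCm38 (mm10), and promoters, from RefSeq (GRCm38.p6), as the 250 bases before a TSS on the gene's strand. Each name gives the distance from the most 5′ TSS, negative upstream. Capitals mark exact matches, on either strand, to a short consensus, and a sequence without capitals holds none of the 17 searched.
Osr1 +14.9 kb, chr12:9584901-9585050: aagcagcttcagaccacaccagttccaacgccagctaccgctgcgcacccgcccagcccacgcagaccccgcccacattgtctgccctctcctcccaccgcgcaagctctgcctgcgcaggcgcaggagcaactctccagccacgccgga
Osr2 -3.01 kb, chr15:35293001-35293170, CTCF: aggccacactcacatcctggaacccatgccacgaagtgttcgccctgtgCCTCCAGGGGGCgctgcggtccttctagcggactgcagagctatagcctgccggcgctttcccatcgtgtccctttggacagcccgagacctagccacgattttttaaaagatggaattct
Sall1 +6.47 kb, chr8:89037621-89037770: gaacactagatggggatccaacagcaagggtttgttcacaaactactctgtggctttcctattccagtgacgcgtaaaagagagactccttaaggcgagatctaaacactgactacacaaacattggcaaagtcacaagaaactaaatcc
Sall1 promoter before 89043512, chr8:89043513-89043762, minus strand, WT1 and SP/KLF: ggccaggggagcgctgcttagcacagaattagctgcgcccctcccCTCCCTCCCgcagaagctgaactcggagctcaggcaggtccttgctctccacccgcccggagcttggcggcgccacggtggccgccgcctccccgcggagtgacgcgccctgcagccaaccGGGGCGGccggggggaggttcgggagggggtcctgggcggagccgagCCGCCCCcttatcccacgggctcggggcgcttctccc
Sall2 -10.1 kb, chr14:52338781-52338930, CTCF wide and TAATTA: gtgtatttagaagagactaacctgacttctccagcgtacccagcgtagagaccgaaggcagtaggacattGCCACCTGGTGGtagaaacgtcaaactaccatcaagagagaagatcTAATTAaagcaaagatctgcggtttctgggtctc
Sall2 promoter before 52316323, chr14:52316324-52316573, minus strand, WT1: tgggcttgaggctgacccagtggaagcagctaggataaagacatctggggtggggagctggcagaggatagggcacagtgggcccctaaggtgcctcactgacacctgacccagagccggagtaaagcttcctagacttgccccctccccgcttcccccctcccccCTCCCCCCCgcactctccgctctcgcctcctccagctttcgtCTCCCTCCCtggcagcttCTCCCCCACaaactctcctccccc
Sall4 -36.1 kb, chr2:168803941-168804090, GATA and TEAD: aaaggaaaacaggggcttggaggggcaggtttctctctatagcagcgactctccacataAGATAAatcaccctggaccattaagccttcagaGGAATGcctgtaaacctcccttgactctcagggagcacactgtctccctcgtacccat
Meox1 -16.04 kb, chr11:101910341-101910490, Six2 and AATATT: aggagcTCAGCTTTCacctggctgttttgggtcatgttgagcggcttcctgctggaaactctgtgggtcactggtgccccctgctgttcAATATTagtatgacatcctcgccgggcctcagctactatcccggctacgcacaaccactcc
Meox1 -7.13 kb, chr11:101901421-101901590, TEAD and FOX: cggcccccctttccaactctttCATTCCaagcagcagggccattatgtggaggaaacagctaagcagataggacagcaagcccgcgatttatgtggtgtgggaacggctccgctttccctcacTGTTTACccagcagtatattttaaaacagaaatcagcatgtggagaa
Meox2 +33.7 kb, chr12:37142161-37142310, TAATTA and AP-1: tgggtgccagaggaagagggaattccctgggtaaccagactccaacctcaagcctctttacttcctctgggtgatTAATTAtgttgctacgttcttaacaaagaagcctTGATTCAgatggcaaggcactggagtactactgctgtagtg
Meox2 +33.9 kb, chr12:37142361-37142530, HOX and TEAD: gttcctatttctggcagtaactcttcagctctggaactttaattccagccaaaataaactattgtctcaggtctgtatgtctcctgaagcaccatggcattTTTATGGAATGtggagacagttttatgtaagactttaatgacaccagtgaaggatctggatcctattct
Meox2 promoter before 37108540, chr12:37108290-37108539, plus strand, OSR and WT1: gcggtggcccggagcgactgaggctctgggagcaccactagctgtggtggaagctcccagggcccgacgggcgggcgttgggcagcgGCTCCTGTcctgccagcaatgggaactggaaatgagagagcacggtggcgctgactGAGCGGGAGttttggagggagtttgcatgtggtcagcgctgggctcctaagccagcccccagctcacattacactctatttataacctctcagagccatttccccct
Uncx -7.10 kb, chr5:139536321-139536470, OSR and CTCF: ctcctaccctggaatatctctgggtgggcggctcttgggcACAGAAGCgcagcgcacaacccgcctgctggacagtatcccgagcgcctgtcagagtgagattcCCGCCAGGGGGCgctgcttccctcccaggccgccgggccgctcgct
Uncx +29.2 kb, chr5:139572601-139572790, E-box, HOX and TCF/LEF: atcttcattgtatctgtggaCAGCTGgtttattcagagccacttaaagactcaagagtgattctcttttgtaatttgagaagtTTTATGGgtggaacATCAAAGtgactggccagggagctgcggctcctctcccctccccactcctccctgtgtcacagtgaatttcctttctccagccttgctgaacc

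At all 10 genes both replicates showed a promoter peak, a state shared by 71.8% of protein-coding genes. Their signals were nonetheless modest. Promoter signal here is that of the strongest peak within 1 kb of any TSS, and its median over the genes that had one in each replicate was 99.8 (quartiles 48.3 and 160.4). Every one of the 10 means lay below that median, from 20.8 for Sall3 to 98.6 for Sall2, with a median of 64.3 and a median percentile of 32.8. In the mean over replicates the order was Sall2, Meox2, Osr2, Osr1, Sall1, Meox1, Cited1, Uncx, Sall4 and Sall3. Neighbours in that order whose replicate values overlapped were Sall2 and Meox2, Osr2 and Osr1, Osr1 and Sall1, Sall1 and Meox1, and Meox1 and Cited1. The values of Meox2 and Osr2, Cited1 and Uncx, Uncx and Sall4, and Sall4 and Sall3 did not overlap. Overlap leaves out that the genes were measured in the same 2 libraries. Within each replicate Osr1 lay above Sall1 and Meox1 above Cited1, and the other overlapping pairs changed order between replicates. With 2 values on each side, even taken as unpaired, the smallest two-sided exact permutation p is 0.333. Differences between genes are therefore described and were not tested.

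**Figure D1:**
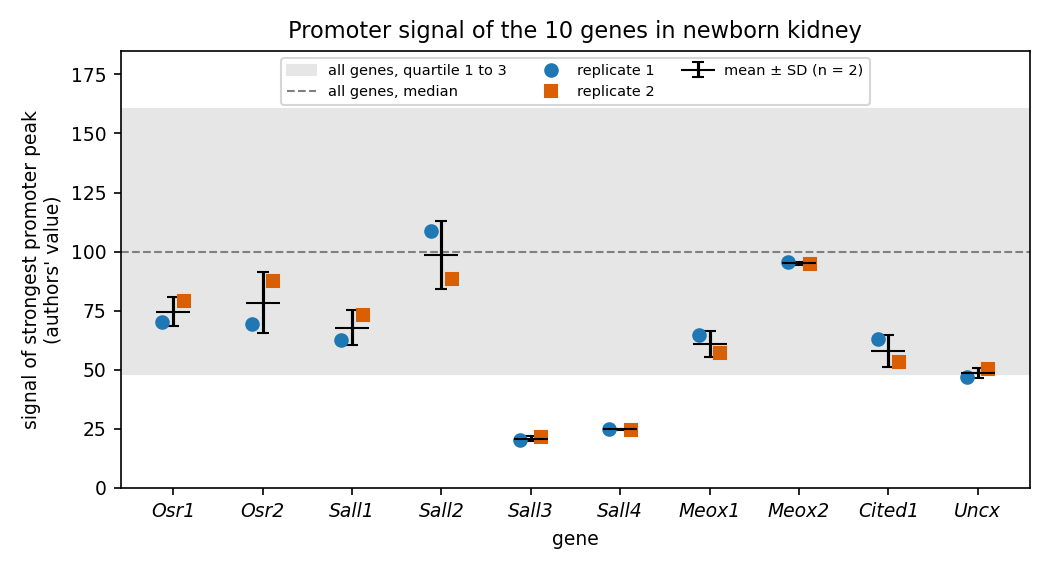
Signal of the strongest promoter peak (y axis, authors' value) of each of the 10 genes (x axis) in replicate 1 (circles) and replicate 2 (squares), with the mean and SD (n = 2), with the median and quartiles over all genes that had such a peak in each replicate. All means lie below the median of 99.8, and Sall3 (20.8) and Sall4 (24.8) lie below the first quartile of 48.3.

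Distal sites went the other way. The genes had a median of 15 shared distal sites within 50 kb (range 2 to 37), against 6 over all protein-coding genes (quartiles 2 and 11), and 8 of 10 had more than 6. At least 1 such site stood near all 10 genes and near 85.8% of all protein-coding genes. At least 20 stood near 4 of the 10 genes, Osr2, Sall1, Meox1 and Uncx, and near 4.93% of all protein-coding genes. Sall1 had 18 when sites near curated RefSeq starts were also classed as promoter sites. In 5 of 10 genes (Sall1, Sall3, Sall4, Meox1 and Uncx) the strongest distal site had more signal than the promoter in both replicates, against 29.3% of genes with both kinds of site. These counts belong to a set of 10 genes chosen for their roles, and no test was made of them. When only peaks in the upper 50% of signal were kept, the median fell to 5.5 for the 10 genes and to 3 for all genes.

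**Figure D2:**
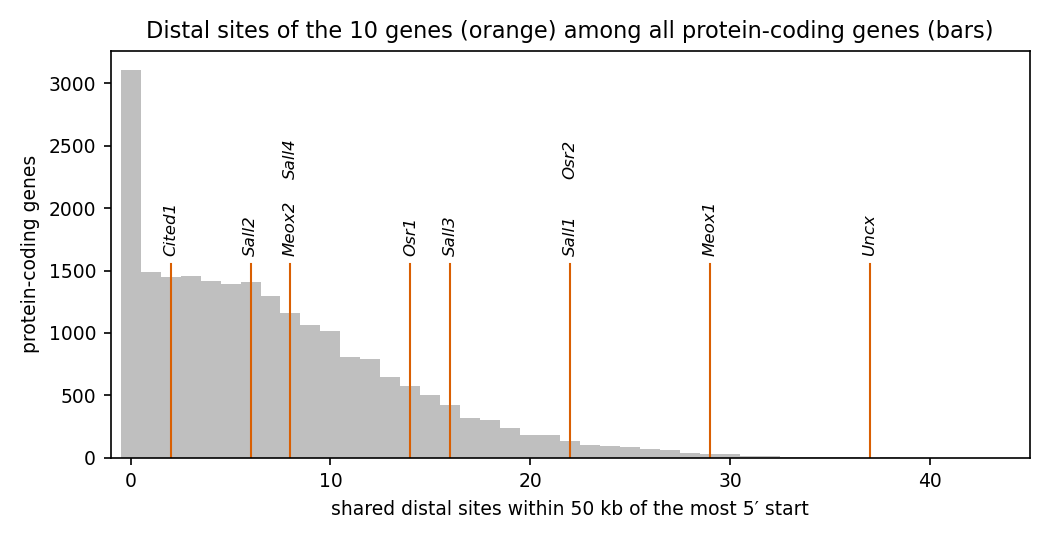
Number of protein-coding genes (y axis, bars) by their number of shared distal sites up to 50 kb from the most 5′ TSS (x axis). Orange lines mark the 10 genes, from Cited1 with 2 sites to Uncx with 37, and 8 of them stand to the right of the all-gene median of 6.

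Together the 10 genes had 164 shared distal sites, none of them counted for more than 1 gene. By GENCODE M21, 87 were intergenic, 65 intronic, 4 in coding exons, 3 in UTRs and 5 in other exons. Of the 164, 60 lay upstream of the gene, 55 within it and 49 beyond its end. For 114 sites the nearest TSS of any gene was that of the gene itself. Apart from the genes named with their sites, those with a start in these windows were the non-coding genes Mir8110 near Sall1, Gm26328, Gm4742 and Gm37504 near Sall2, AC125210.1 and Gm25718 near Sall3, Gm29007 near Meox2, and Gm14859 and Gm26318 near Cited1. The 2 replicates gave signals within 2-fold of each other at all 164 sites and within 1.5-fold at 155. The share over all shared distal sites was not computed at those limits. Among all shared sites, 81.8% to 97.6%, depending on signal level, had a log2 ratio within 0.5 of the median. The sites covered a wide range of strength. Each was placed by the mean of its percentiles among all shared distal sites (median signal 19.1) in the 2 replicates. By that measure 79 were below percentile 50, and 26 were at or above percentile 90, called the top 10% here.

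**Figure D3:**
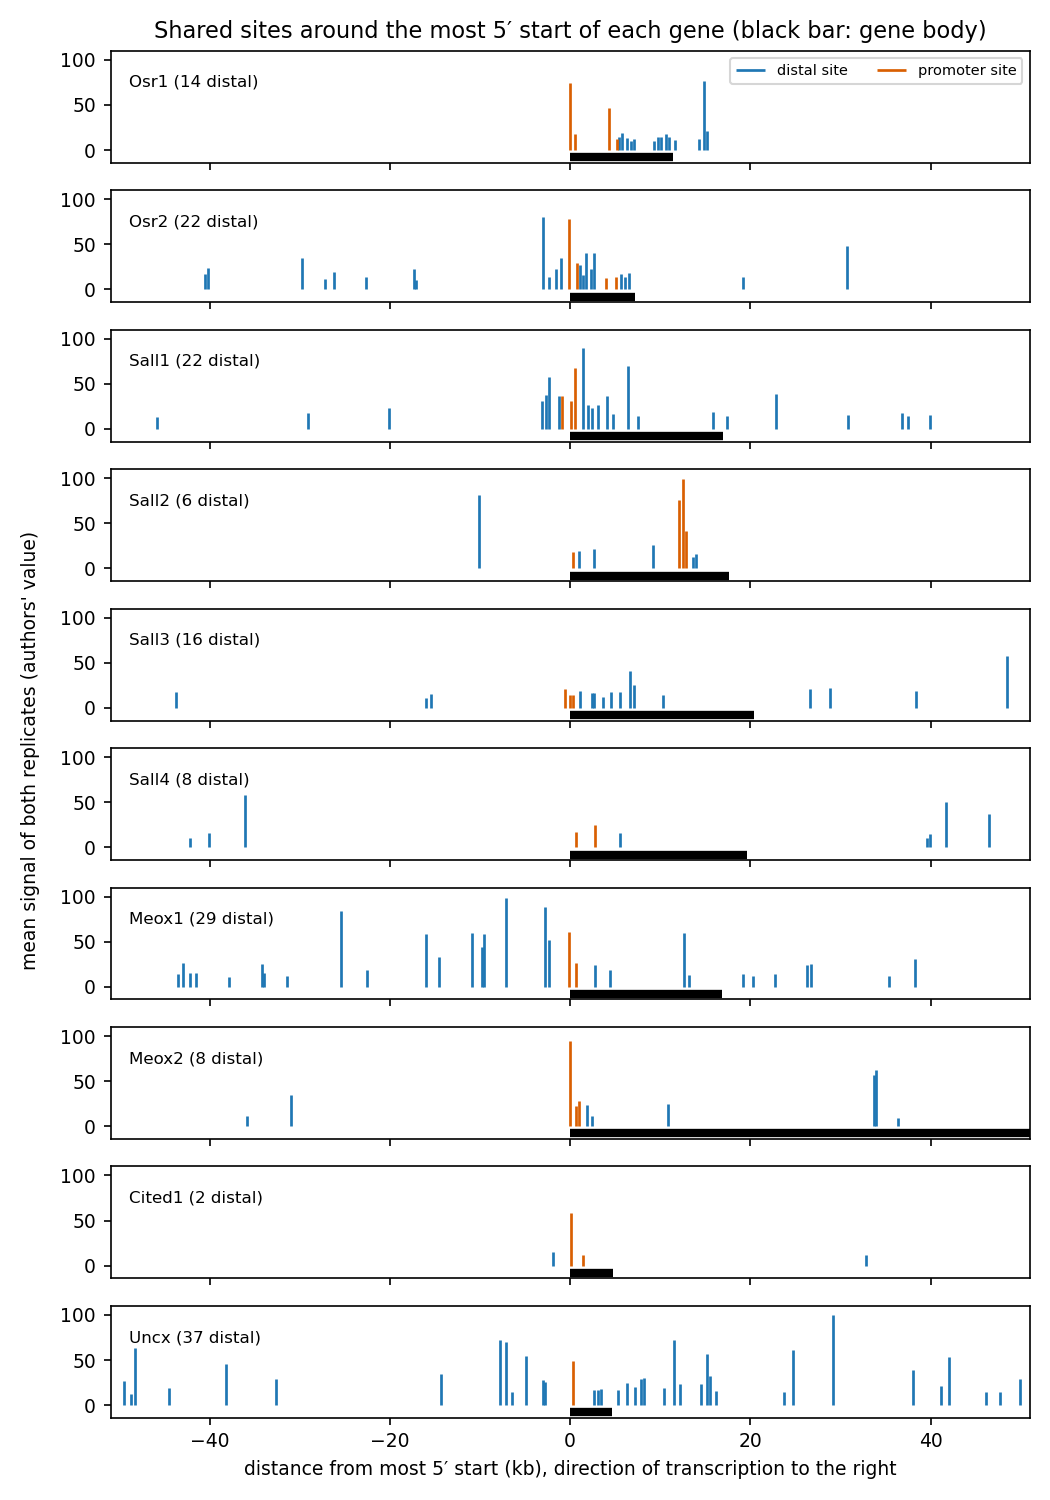
Mean signal of both replicates (y axis, authors' value) at shared promoter sites (orange) and distal sites (blue) by distance from the most 5′ TSS in kb (x axis, transcription to the right). The black bars are the gene bodies. The sites of Osr1 begin at its TSS and end at +15.2 kb, those of Meox1 are strongest upstream, and those of Uncx span the whole window.

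**Figure D4:**
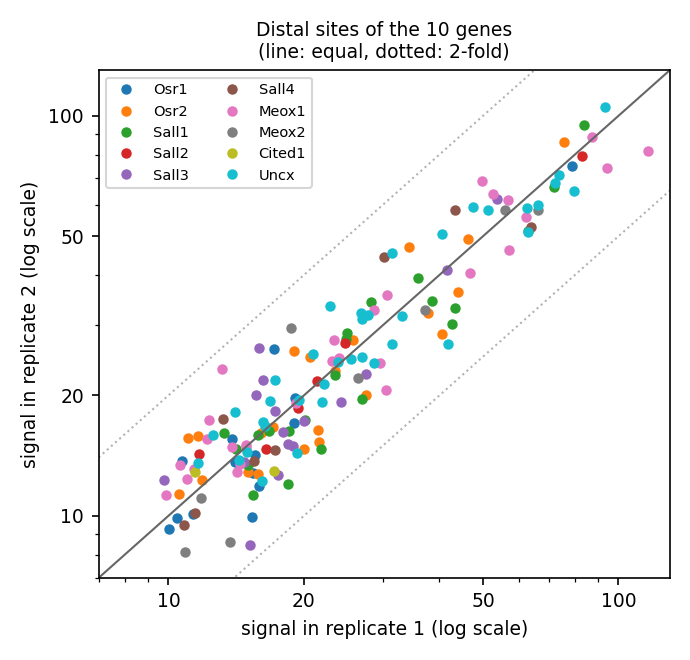
Signal of the 164 distal sites in replicate 1 (x axis) and replicate 2 (y axis), both on log scales, coloured by gene, with a line of equality and dotted lines at 2-fold. All points lie between the dotted lines.

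On GENCODE starts the odd-skipped pair had promoters whose signals overlapped, and the positions of their distal sites differed. Osr1 (ENSMUSG00000048387.8, chr12:9570116-9581500, plus strand), the early intermediate mesoderm gene, gave a promoter signal of 70.2 in replicate 1 and 79.1 in replicate 2 (74.6 ± 6.31, SD, n = 2; percentile 37.8). Osr2 (ENSMUSG00000022330.5, chr15:35296098-35303305, plus strand), a close paralog known from palate and tooth development, gave 69.4 and 87.5 (78.4 ± 12.8; percentile 39.5). The replicate values of the pair overlapped, and the log2 ratio of Osr1 over Osr2 was -0.06 ± 0.11, with opposite signs in replicate 1 (0.02) and replicate 2 (-0.14). On starts of curated RefSeq transcripts the ratio was -0.76 and the values no longer overlapped, Osr1 being the lower.

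All 14 distal sites of Osr1 lay on 1 side, from +5.44 to +15.2 kb, and none lay upstream within 50 kb. The nearest shared distal site upstream was 109.7 kb away, although the nearest upstream protein-coding TSS, that of Ttc32, was 540.1 kb away. Of the 14 sites, 13 were weak, with 11 under the distal median, and the closest, at +5.44 kb in an intron, had 15.4 and 12.8. The remaining one, at +14.9 kb, beyond the end of the gene, had 78.9 in replicate 1 and 75 in replicate 2 (76.9 ± 2.73, percentile 96.6 of distal sites). These values overlapped those of the promoter. Its sequence, printed first above, was 68.0% G and C and held none of the 17 motifs. With an overlap of at least 75 bp asked for, Osr1 had 9 shared distal sites.

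Osr2 had 22 distal sites on both sides, 12 upstream, 8 within the gene and 2 beyond it. Its strongest distal site, at -3.01 kb, had 75.8 and 85.9 (80.8 ± 7.15, percentile 97.0) and carries a match to the core consensus of the insulator protein CTCF, shown in capitals above. Such a match stood in 1.84% of all shared distal sites. The nearest distal site, at -1.03 kb, had 40.6 and 28.5, and lies only just outside the promoter class. A further cluster ran from -40.6 to -17.1 kb, its strongest member at -29.8 kb with 37.8 and 32.2. Its sites from -40.6 to -22.7 kb, that member among them, lie in introns and exons of the annotated gene Gm33497. The site at +30.7 kb, in an intron of the non-coding gene BC048602, had 46.4 and 49.2.

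Both genes have a second TSS, and in both the upstream one had more signal. At Osr1 the upstream TSS (position 9570116) had the 70.2 and 79.1 given above, and the TSS 4325 bp downstream had 38.2 and 55.7 (47.0 ± 12.3). The window of the upstream TSS also holds the start of the non-coding gene 1700022H16Rik, at +469 bp on the opposite strand. The ratio of the upstream to the downstream TSS was 1.83 in replicate 1 and 1.42 in replicate 2. Curated RefSeq transcripts of Osr1 start only at the downstream TSS, so that on RefSeq starts its promoter signal was 47.0 and its site at +14.9 kb then exceeded the promoter in both replicates. At Osr2 the TSS 4202 bp downstream had 13.2 and 15.3, and the ratio was 5.25 and 5.72. These values come from different peaks in the replicates. The shared sites near that TSS had 10.7 and 15.3, and 13.2 and 13.7.

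The spalt-like genes, whose zinc-finger proteins recruit the NuRD corepressor complex, differed most among themselves. Sall1 and Sall2 had several times the promoter signal of Sall3 and Sall4, in both replicates. Sall1 (ENSMUSG00000031665.7, chr8:89027235-89044162, minus strand), the family member needed for kidney development, gave 62.5 and 73.0 (67.8 ± 7.41; percentile 34.5). Sall2 (ENSMUSG00000049532.11, chr14:52311172-52328762, minus strand), a more divergent relative, gave 108.7 and 88.4 (98.6 ± 14.4; percentile 49.4). Sall3 (ENSMUSG00000024565.9, chr18:80966376-80986771, minus strand), known from cranial nerve development, gave 20.05 and 21.6 (20.8 ± 1.09; percentile 9.06). Sall4 (ENSMUSG00000027547.17, chr2:168748332-168767943, minus strand), best known from pluripotent cells and the germ line, gave 25.02 and 24.6 (24.8 ± 0.265; percentile 11.8). On GENCODE starts no pair among the 4 overlapped in its replicate values. On RefSeq starts, and with windows of 2 kb, Sall1 had 83.8 and 94.9, which overlapped Sall2, and the log2 ratio of Sall1 over Sall2 went from -0.54 ± 0.37 to -0.14. Sall1 exceeded Sall3 by 3.12-fold and 3.38-fold, and Sall4 by 2.50-fold and 2.96-fold. Sall2 exceeded Sall3 by 5.42-fold and 4.09-fold. The order of Sall3 and Sall4 is not settled: the log2 ratio was -0.25 ± 0.09, but 0.16 when signal was summed over all promoter peaks and 0.29 on RefSeq starts.

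Sall3 had a weak promoter on the sequence richest in CpG among the 4. Within 500 bp of its most 5′ TSS, Sall3 had a GC content of 77.2% and an observed over expected CpG ratio of 1.01, in the highest CpG quintile, where 99% of genes had such a peak in each replicate and the median promoter signal was 133.6. Among genes of that quintile Sall3 stood at percentile 2.06. Sall2, in the second quintile with a ratio of 0.336, stood at percentile 80.1 of its own, although the ratio was 0.511 at the internal TSS that carried its signal. Sall1, in the middle quintile with a ratio of 0.635, stood at percentile 42.3, and Sall4, in the same quintile with a ratio of 0.405, at percentile 13.05. The quintile of Sall4 rests on its most 5′ TSS, that of a transcript not classed as protein-coding. Its ratio was 0.549 at the internal TSS with its highest signal and 0.832 at its curated RefSeq start, so Sall4 too had a weak promoter near CpG-rich sequence.

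The signal of Sall2 came from an internal start. Its most 5′ TSS had 22.4 and 18.6 (20.5 ± 2.67), and the TSS 12439 bp downstream, at position 52316323, had 108.7 and 88.4. By these values the internal start was higher by 4.86-fold in replicate 1 and 4.76-fold in replicate 2. The 18.6 is, however, a different peak from the 22.4. It is centred 1007 bp from the most 5′ TSS and is also part of the distal site at +1.03 kb. The shared promoter site near the most 5′ TSS had 22.4 and 13. Beside the main peak, 28 bp downstream of the internal TSS, stood another shared site 12047 bp from the most 5′ TSS with 81.8 and 69.6 and one at +12.9 kb with 46.0 and 37.1. The RefSeq promoter before this TSS, printed above, ends in a run rich in C and T on the gene's strand. That run holds 3 marked matches to the WT1 consensus CTCCCNCNC, a motif found in 15.2% of the 32851 RefSeq promoters of 250 bases. Sall4 also had more signal at an internal TSS, 2697 bp downstream, with 25.02 and 24.6 against 15.1 and 19.3 at the upstream starts. The start of the non-coding gene Gm14261 lies near that internal TSS, and curated RefSeq transcripts of Sall4 do not use it, which lowers its promoter signal to 17.2.

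**Figure D5:**
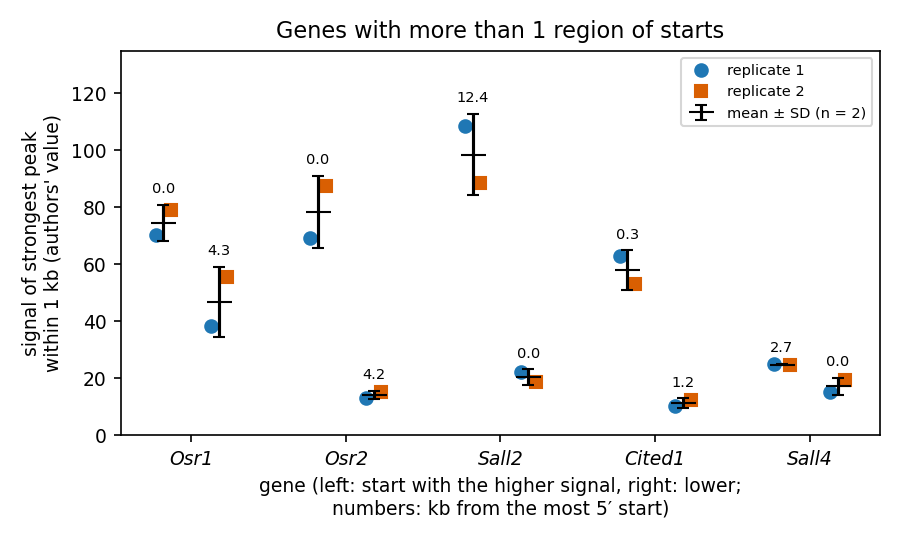
Signal of the strongest peak within 1 kb (y axis, authors' value) at the TSS with the highest and the lowest signal of each gene (x axis) with more than 1 region of starts that had a peak. Replicate 1 (circles) and replicate 2 (squares) are shown with mean and SD (n = 2). Starts without a peak were left out, those 11740 bp downstream at Sall3 and 12000 bp downstream at Sall4. Numbers give the distance of each TSS from the most 5′ TSS in kb. At Sall2 the internal TSS (98.6) exceeds the upstream one (20.5), and at Osr1, Osr2 and Cited1 the upstream region is the higher one.

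Sall1 had 22 distal sites, the largest count of the family, and 12 of them (54.5%) lay within 10 kb of the TSS, the same share as at Osr2. With sites near curated RefSeq starts also classed as promoter sites, Sall1 had 18. The nearest protein-coding TSS on either side belonged to Tox3, 1304 kb upstream, and Cyld, 309.1 kb downstream. The strongest site, at +1.39 kb in the first intron by GENCODE, had 83.8 and 94.9 (89.4 ± 7.81, percentile 98.0). GENCODE gives Sall1 1 TSS, but curated RefSeq transcripts also start at 89043512 and 89042862, and on those starts this site is a promoter site and the promoter signal of Sall1 is 89.4. The strongest GENCODE promoter peak lies across the bases before 89043512 that are printed above, which are 74.4% G and C and hold matches to WT1 and to the SP/KLF consensus GGGGCGG. The latter stood in 20.97% of RefSeq promoters.

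The intron of Sall1 held a further strong site at +6.47 kb, with 72.1 and 66.3 (69.2 ± 4.04, percentile 95.2), whose printed sequence has 43.3% G and C and no motif match. Upstream, 4 sites stood between -3.08 and -1.22 kb, the strongest at -2.32 kb with 62.9 and 51.6, and the nearest, at -1.22 kb, with 38.5 and 34.4. Counted in single replicates, Sall1 had 34 distal sites in replicate 1 and 31 in replicate 2, of which 22 were shared.

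Sall2 and Sall4 had few distal sites, 6 and 8. At Sall2, 5 of 6 lay within the gene, the nearest at +1.03 kb with 19.4 and 18.6, and its neighbours are closer than those of the rest of the family, with the TSS of Olfr1513 21.3 kb upstream and that of Mettl3 23.6 kb downstream. The ubiquitous neighbours Mettl3, Tox4 and Rab2b had promoter signals of at least 150.6, and the olfactory receptor genes Olfr1513 and Olfr1512 had no promoter peak. The only upstream site, at -10.1 kb, was also the strongest, with 82.9 and 79.3 (81.1 ± 2.51, percentile 97.1). It holds TAATTA, the core bound by many homeodomain proteins, and a match to a wider CTCF pattern, with 2 of the G letters left free, that was added after the sequences had been seen. At Sall4 no distal site lay between -36.1 and +5.49 kb. The site at -36.1 kb had 63.8 and 52.7 (58.3 ± 7.88, percentile 92.2), above its own promoter. Its nearest site, at +5.49 kb, had 17.2 and 14.6, and the other 4 downstream sites lay in introns of Atp9a, among them one at +41.7 kb with 43.3 and 58.0.

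Sall3 had 16 distal sites beside its weak promoter, 9 of them within the gene. Its strongest, at +48.5 kb, had 53.6 and 61.8 (57.7 ± 5.79, percentile 91.9), and its nearest TSS, 4195 bp away, was that of Atp9b. Within the gene, the site at +6.59 kb had 41.6 and 41.1, higher than the promoter in both replicates. The site nearest to the TSS, at +1.14 kb, had 16.2 and 21.9. A non-coding gene, Gm27239, starts at -685 bp from the TSS of Sall3 on the opposite strand, and the strongest promoter peak of Sall3 lies between the 2 starts.

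The mesenchyme homeobox pair showed opposite arrangements, a stronger promoter with few distal sites and a weaker promoter with many. Meox1 (ENSMUSG00000001493.9, chr11:101877510-101894374, minus strand), a regulator of somite patterning, gave 64.9 and 56.9 (60.9 ± 5.62; percentile 31.1). Meox2 (ENSMUSG00000036144.6, chr12:37108540-37179534, plus strand), known from limb muscle and vascular cells, gave 95.4 and 94.6 (95 ± 0.597; percentile 47.7). The replicate values did not overlap, and Meox1 had 0.680 and 0.602 times the signal of Meox2. Around Meox1 stood 29 distal sites (percentile 99.5 among all genes) and around Meox2 8 (percentile 62.0).

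Of the 29 sites of Meox1, 18 lay upstream, and these included 6 of its 7 sites in the top 10% of distal sites. The site at -7.13 kb had 116.0 in replicate 1 and 81.6 in replicate 2 (98.8 ± 24.3, percentile 98.2). With the median over all shared sites subtracted, its log2 ratio was -0.49. The median size of that value was 0.18 at shared sites with a mean signal of 50 to 100. That at -2.76 kb had 87.3 and 88.6, and that at -25.5 kb had 94.4 and 74.02. These 3 exceeded the promoter of Meox1 in both replicates. The distal site nearest to the TSS, at -2.34 kb, had 57.1 and 46.1. The site at -16.04 kb, with 62.3 and 55.8 (percentile 92.5), is printed above since it carried the only match among the 164 sites to AATATT, the A and T rich motif of SALL4, and a match to the Six2 consensus TCANNTTTC besides. The protein-coding TSSs next to Meox1 are those of Sost, 72.6 kb upstream, and Etv4, 109.0 kb downstream. For 9 of the 29 sites the nearest TSS of any kind was that of Meox1. The starts of the pseudogene Rpl27-ps2 and the antisense gene Gm11551 were nearest to the others.

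Meox2 lies in a wide gap, 726.4 kb from the next protein-coding TSS upstream. All of its 8 distal sites were intronic, 6 in its own introns and 2 upstream in those of the non-coding genes Gm48616 and Gm48617. A pair of neighbouring sites, at +33.7 and +33.9 kb, were the strongest, with 56.0 and 58.1 (percentile 91.9) and 66.1 and 58.1 (62.1 ± 5.65, percentile 93.4). The sequence of the former holds TAATTA and the AP-1 consensus TGANTCA, and that of the latter the HOX consensus CCATAAA and the TEAD consensus GGAATG, which share the letters GG there. The nearest distal site, at +1.86 kb, had 18.7 and 29.4. The promoter peak of Meox2 lay 25 bp upstream of the TSS, so that it overlaps the end of the printed promoter. That promoter also holds an OSR match, as did 5.93% of RefSeq promoters.

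Cited1 (ENSMUSG00000051159.16, chrX:102247381-102252181, minus strand) codes for a cofactor that binds CBP and p300 and has no DNA-binding domain. It gave a promoter signal of 62.9 and 53.2 (58.0 ± 6.87; percentile 29.7). It lies on the X chromosome, where 50.3% of protein-coding genes had such a peak in each replicate, with a median signal of 61.6, so its promoter was close to the median of its chromosome. Only 2 distal sites lay within 50 kb, against a median of 1 on the X chromosome (quartiles 0 and 3), where 26.4% of genes had at least 3, and both were weak. That at -1.87 kb had 17.1 and 12.97, and that at +32.9 kb had 11.4 and 12.8. Within 100 kb there were 6, and with only the upper 50% of peaks there was none within 50 kb. The upstream group of starts carried the signal, and the downstream group, 906 bp on, had 10.2 and 12.5, lower by 6.14-fold and 4.25-fold. The start of the non-coding gene Gm14858 lies within the same window, at -341 bp on the opposite strand. Its relatives outside the 10 genes had more promoter signal: Cited2, also a binder of CBP and p300, gave 146.5 and 162.0, and Cited4 gave 99.4 in both, with 9 and 7 distal sites.

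Uncx (ENSMUSG00000029546.12, chr5:139543494-139548179, plus strand), a homeobox gene that in the somites acts in the posterior part of the sclerotome, had the most distal sites of the 10 genes. Its promoter gave 47.0 and 50.2 (48.6 ± 2.28; percentile 25.2), at percentile 9.50 within the highest CpG quintile. Within 50 kb stood 37 distal sites, a count at percentile 99.95 of all protein-coding genes, 13 upstream, 3 within the gene and 21 downstream, up to +49.9 kb. For 30 of the 37 the nearest TSS of any kind was that of Uncx, and the next protein-coding TSSs were those of Zfand2a, 58.9 kb upstream, and Micall2, 166.7 kb downstream. Of the 37, 9 were in the top 10% of distal sites and 9 exceeded the promoter of Uncx in both replicates.

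The strongest site of Uncx, at +29.2 kb, had 93.5 and 105.5 (99.5 ± 8.43, percentile 98.7), the highest mean of all 164 sites. Its printed sequence holds the E-box CAGCTG, the HOX consensus and the TCF/LEF consensus ATCAAAG. Upstream, sites at -7.78 and -7.10 kb had 79.8 and 64.9, and 72.2 and 68.1, in an intron of the non-coding gene 4930500L23Rik. The latter carries matches to CTCF and to the OSR consensus ACAGNAGC. On the other side, the site at +11.6 kb had 73.8 and 71.3. The sites inside the gene were weak by comparison, and the one nearest to the TSS, at +2.59 kb, had 16.2 and 17.2. The 37 sites had a median mean signal of 26.3, against 19.1 for all shared distal sites.

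The motif content of the 164 sites lay near that of all 151068 shared distal sites. In the central 150 bp, the OSR consensus stood in 10 of 164 sites (6.10%, against 4.94% of all) and TAATTA in 10 (6.10% against 4.66%). The Six2 consensus stood in 11 (6.71% against 4.18%) and the WT1 consensus in 17 (10.4% against 7.78%). All 4 shares were higher than the background by a few sites. AATATT, by contrast, stood in 1 (0.610% against 3.65%), and the TEAD consensus in 17 (10.4% against 13.01%). Of the other consensuses, the HOX one stood in 9 (5.49% against 3.53%), AP-1 in 7 (4.27% against 6.90%), the AGATAA core of GATA factors in 12 (7.32% against 6.97%), FOX (TGTTTAC) in 7 (4.27% against 3.18%), ETS (CCGGAA) in 8 (4.88% against 3.57%) and SP/KLF in 7 (4.27% against 2.41%). The E-box stood in 25 (15.2% against 16.02%), TCF/LEF in 4 (2.44% against 2.58%) and CTCF in 2 (1.22% against 1.84%). The PAX2/8 and NFI consensuses stood in none, and in 0.159% and 0.102% of all sites. No difference was tested, and a match is a string of letters and not a bound site. By gene, the OSR matches were spread over 7 genes, 4 of the 10 at Uncx, and the Six2 matches over Osr2, Sall3, Meox1 and Uncx. The wider CTCF pattern stood in 12 of 164 sites (7.32%) and in 9.96% of all. Among the 12 sites of the 10 genes at or above percentile 95 it stood in 4, the strongest distal sites of Osr2 and Sall2 and a site each of Meox1 and Uncx, against 28.2% of all sites that strong.

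Other genes of the same pathways set the scale. All 18 nephron progenitor genes showed a promoter peak in each replicate, the state of 71.8% of all protein-coding genes. They had a median promoter signal of 74.5 and a median of 18.5 distal sites. Their highest was Dpf3 (178.1 and 169.4), a chromatin remodelling subunit, and their lowest Crym (23.3 and 18.7). The 8 intermediate mesoderm genes, 3 of which are also in that list, had a median of 56.7 and 15 distal sites, and the highest was Wt1 (121.0 and 110.4). The 10 genes, at 64.3 and 15, lay between and beside these lists. The 13 genes of the NuRD complex, the partner of the Sall proteins, were all called as well, with a median of 147.2 and 10 distal sites, from Mta1 (36.3 and 40.9) to Mbd3 (275.2 and 309.1). Only Mta1 and Mta3 of the 13 fell below the 67.8 of Sall1. The 12 somite and sclerotome regulators also all had a peak in both replicates, with a median of 42.7 and 10.5 distal sites. They ran from Pax7 (11.8 and 9.66), the regulator of muscle progenitors, to Foxc2 (195.7 and 220.9), also known from kidney mesenchyme. Meox1, Meox2 and Uncx, at 60.9, 95 and 48.6, all stood above the median of that list.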

How the data were processed

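DNase-seq peak lists of newborn mouse kidney were analysed, 1 list per replicate (2 replicates, 1 group). Each list was made from 36-nt reads aligned to mm10, per the file headers; the aligner, peak caller and threshold were not given in the sources used here. For each peak, the deposited signal (column 7, the authors' value) was used to describe and rank peaks. The deposited −log10 p (column 8) was not used for any result. Depth is unknown, so no precision per peak can be given.

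A shared site was the union of peaks of both replicates overlapping by at least 1 bp. Promoter signal was that of the strongest peak within 1 kb of any GENCODE M21 TSS of a gene. A peak counted if it overlapped that window, so it could also belong to a distal site, and the replicates could take different peaks. Distal sites had centres more than 1 kb from every TSS and within 50 kb of the gene's most 5′ TSS. Percentiles are among protein-coding genes with a promoter peak in both replicates, CpG quintiles (5) come from 500 bp to each side of the most 5′ TSS, and motifs were sought in the central 150 bp. The genome was GRCm38, the same build as mm10; 5 of the 10 genes had RefSeq promoter entries.

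No test between groups is possible. Values are per replicate or mean ± SD. The genes and lists were chosen with earlier results of these data known. All 10 genes are named, with the strongest and the nearest distal site of each, the genes whose starts share their windows, and the highest and lowest gene of each other list; further sites and genes were named after their values were seen. A few list genes are not reported here, although list counts and medians include them. Alternatives were other windows, starts, overlaps and peak subsets, single replicates, and, added after the data were seen, RefSeq starts. Python 3.11.15, numpy 2.4.6, pandas 2.3.3, pysam 0.24.0 and matplotlib 3.10.9 were used. On simulated lists, the promoter signals and distal counts of 200 of 200 genes were recovered.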

Additional observations from a re-analysis of the deposited data

How the results depend on the processing

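The median promoter percentile of the 10 genes, 32.8, was 34.8 with promoter windows of 2 kb, 27.2 with only peaks in the upper 50% of signal and 30.9 on RefSeq starts, and 33.5 to 34.6 in single replicates. The median of distal sites, 15, fell to 5.5 with only the upper 50% of peaks, against 3 over all genes, and was 18.5 to 20.5 in single replicates, against 8. It was 12 within 20 kb, 17 within 100 kb and 11.5 with an overlap of 75 bp, against 2, 13 and 5. All 10 genes kept a promoter peak under each alternative run for that count. The strongest distal site exceeded the promoter in 5 genes, in 5 on RefSeq starts (with Osr1 and without Sall1), and in 5 and 7 in single replicates. Of 8 family ratios, that of Sall3 over Sall4 changed sign, from -0.25 (log2) to 0.16 for summed signal and 0.29 on RefSeq starts; the cause was not tested. That of Osr1 over Osr2, -0.06, was 0.02 in replicate 1 alone and -0.76 on RefSeq starts. That of Sall1 over Sall2, -0.54, was -0.14 on RefSeq starts and with windows of 2 kb, and -0.93 for summed signal. Over all alternatives, 15 of the recomputed family ratios moved by more than the SD between replicates without changing sign. No paired analysis was possible because there is 1 group, with no second group to pair its samples with; ratios between genes were taken within each replicate. Weak sites rest most on depth, which is unknown, and on the authors' peak threshold.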
